A study of Drosophila melanogaster with 22 samples.

Results

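The genes described here are Mtk, DptB, AttD and edin, which encode small immune peptides of Drosophila melanogaster. They were chosen by name, with earlier results of these data known. A gene counted as a member if a probe set of the array, meaning the group of short probes that reads 1 transcript, was annotated with its symbol and no other. Each of the 4 symbols had 1 such probe set, so 4 of the 18952 probe sets and 4 of the 5961 genes tested are members, and all 4 passed the filter on low values. Mtk and DptB lie on chromosome arm 2R, AttD on 3R and edin on 3L.

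The study measured messenger RNA on 22 Affymetrix arrays of S2 cells, a cultured embryonic line that resembles blood cells (haemocytes). A different subunit of the kinase module of Mediator was targeted in each tested group. Mediator relays signals of transcription factors to RNA polymerase, and the module that can detach from it consists of Cdk8, a kinase, with Cyclin C as its partner and with Med12 (gene kto) and Med13 (gene skd). Cells were given 20 µg of double-stranded RNA (dsRNA), which directs the destruction of matching transcripts, and RNA was taken 72 h later. Cdk8 dsRNA was used for 2 arrays, and CycC, Med12 and Med13 dsRNA for 4 arrays each. As controls, GFP dsRNA was used for 4 arrays and luciferase (Luc) dsRNA for another 4, since neither reporter occurs in fly cells. All groups were grown in medium with serum and antibiotics, and the labels name no microbe or other immune stimulus. Whether replicate arrays stem from separately grown cultures is not given in the labels, and the spread behind the p-values may therefore be technical.

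In flies, peptidoglycan of bacteria is bound by recognition proteins that start the Imd pathway, which ends in the NF-κB factor Relish (gene Rel). Fungal glucans and other bacteria start the Toll pathway, which acts through Dorsal and Dif. Both pathways switch on antimicrobial peptide genes in the fat body and in haemocytes, and GATA factors such as Serpent bind beside NF-κB sites at many of them. Mtk encodes Metchnikowin, a proline-rich peptide active against fungi. DptB encodes a diptericin, a glycine-rich peptide active against Gram-negative bacteria. AttD belongs to the attacins and lacks the signal peptide of the secreted ones. The name edin stands for elevated during infection, and its product is a short peptide made on infection.

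The targeted transcripts stood at 14.4% of the control level for Cdk8, 3.56% for CycC, 9.98% for kto and 80.6% for skd, each under its own dsRNA, and Med13 was the least depleted at the mRNA level. Within every group the correlation between arrays over the genes tested was at least 0.996. The blood cell genes Hml, eater, Pxn and crq were measured, but the plasmatocyte marker NimC1 lay below the floor on every array. The floor was a log2 intensity of 4, that is an intensity of 16, reached on at least 2 arrays. Of the fat body markers 8 had a probe set of their own, and all 8 lay below the floor on every array. Their summed intensity was 43.4 to 43.6 with Cdk8 dsRNA, 43.4 to 44.6 with CycC, 43.3 to 44.0 with Med12 and 43.2 to 43.5 with Med13 dsRNA, against 43.3 to 44.3 in the 8 controls.

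All 4 peptide genes fell with Cdk8 or CycC dsRNA, where 8.07% (Cdk8) and 10.9% (CycC) of all genes tested fell. They parted ways with Med12 or Med13 dsRNA. Mtk and AttD fell in all 4 knockdowns. DptB fell to 36.4% and 35.7% of its control level with Cdk8 and CycC dsRNA and rose slightly with Med12 or Med13 dsRNA. The infection-induced gene edin fell by about 1 on the log2 scale with Cdk8 or CycC dsRNA, by 0.22 with Med12 dsRNA, and did not pass the test with Med13 dsRNA. The plot of intensities by array shows these patterns before any test.

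With Med12 dsRNA 3 members fell (15.5% of all genes) and 1 rose (26.5%). With Med13 dsRNA 2 members fell (11.2% of all genes) and 1 rose (21%). Every array of the group lay below all controls for 4 members with Cdk8 dsRNA (10.8% of all genes) and for 4 with CycC dsRNA (6.63%). The same held for 2 members with Med12 (9.63%) and 2 with Med13 dsRNA (6.48%), while 1 member lay wholly above the controls in each (14.7% of all genes with Med12 and 10.9% with Med13 dsRNA). The median log2 change of the 4 members was -1.30, -1.25, -0.52 and -0.52 for Cdk8, CycC, Med12 and Med13 dsRNA, against 0.02, 0.01, 0.04 and 0.03 over all genes. The 4 comparisons share their control arrays, so these counts are not independent of each other. Since the members were chosen with earlier results known, the values of all genes are set beside theirs as a description. They give no independent test of the members.

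**Figure D1:**
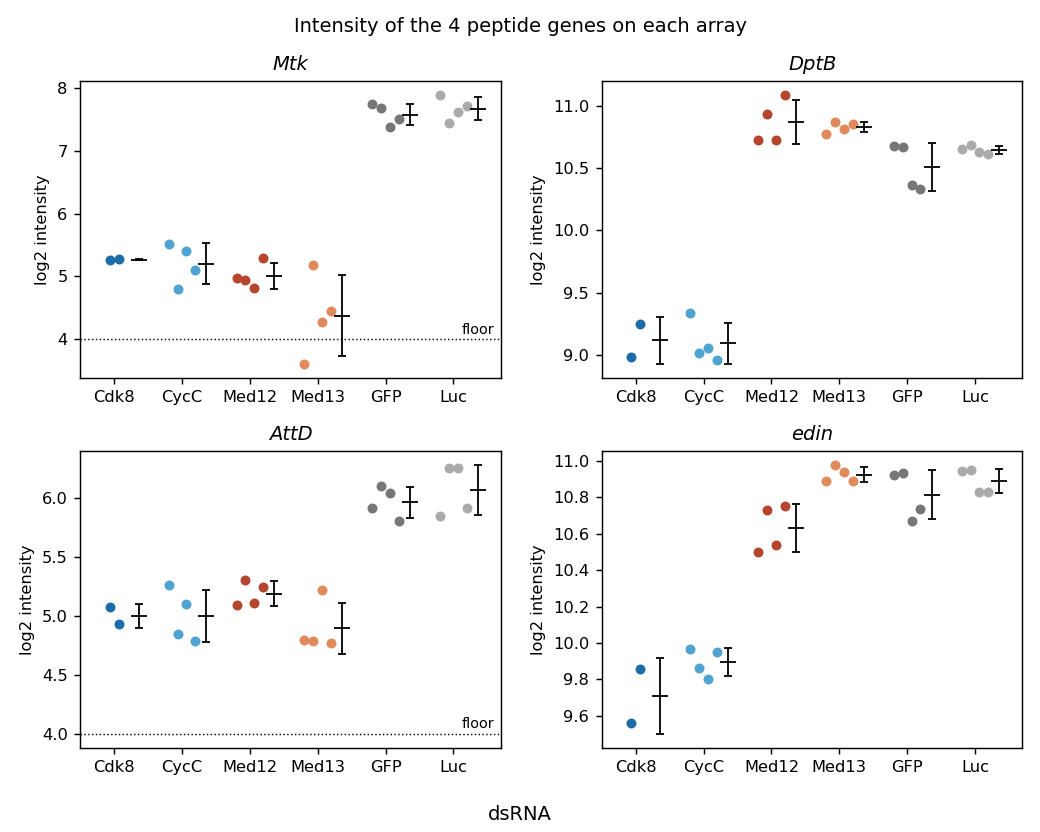
The log2 intensity of Mtk, DptB, AttD and edin (vertical axes, 1 panel per gene with its own range) is plotted for each array by dsRNA group (horizontal axis). Points are arrays, the bar beside each group is its mean ± SD (n = 2 for Cdk8 and 4 for the others), and the dotted line is the floor at 4. All knockdown arrays of Mtk and AttD lie below all controls. All Cdk8 and CycC arrays do so for DptB and edin, and for edin Med12 replicates 1 and 3 do so too.

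Mtk was the member with the largest falls. Its intensity was 38.3 and 38.8 on the Cdk8 dsRNA arrays and 45.8, 27.7, 42.2 and 34.5 on the CycC arrays. It was 31.5, 30.8, 28.2 and 39.4 with Med12 dsRNA and 12.1, 36.2, 19.3 and 21.7 with Med13 dsRNA. The 8 controls ranged from 166 to 239 with a median of 201. Every knockdown array lay below every control, with a wide gap, and a single Med13 array, replicate 1, lay below the floor.

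In terms of change, Mtk stood at 19.5% of the control level with Cdk8 dsRNA, a log2 difference of -2.36 ± 0.24 (SE, n = 2 against 8; limma adjusted p = 5.39e-07). With CycC dsRNA it stood at 18.6% (-2.42 ± 0.19, n = 4 against 8; limma adjusted p = 5.14e-09). With Med12 dsRNA it stood at 16.3% (-2.62 ± 0.19; limma adjusted p = 8.51e-10), and with Med13 dsRNA at 10.5% (-3.25 ± 0.19; limma adjusted p = 3.70e-11). The Med13 arrays lay around the floor, so the size of that last fall is not well fixed. With 64 added to each intensity before the log2, the Mtk changes were -1.35, -1.37, -1.44 and -1.61 for Cdk8, CycC, Med12 and Med13 dsRNA. Adjusted p-values throughout are those of limma's moderated test in 1 fit of all 22 arrays, corrected over the 5961 genes. Counted from the largest fall, Mtk ranked 3 of 5961 genes with Cdk8 dsRNA, 3 with CycC and 6 with Med12 dsRNA.

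Ordered from low to high, the Mtk group means ran Med13, Med12, CycC, Cdk8, GFP and Luc. Neighbours in that order overlapped in their arrays except Cdk8 and GFP, which were set apart by the step between knockdowns and controls. Mtk was also the member with the widest spread. Its SD within groups was 0.34 on the log2 scale, against a median of 0.08 over the genes tested, and the Med13 arrays alone had an SD of 0.65.

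DptB split the knockdowns into pairs. The 2 Cdk8 arrays had intensities of 507 and 609, and the 4 CycC arrays had 647, 518, 533 and 498. With Med12 dsRNA the values were 1691, 1957, 1694 and 2182, and with Med13 dsRNA they were 1756, 1871, 1801 and 1849. The controls ranged from 1287 to 1650 with a median of 1594. The Cdk8 and CycC arrays thus all lay below the controls and the Med12 and Med13 arrays all above them, though the rise was small.

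The diptericin transcript stood at 36.4% of controls with Cdk8 dsRNA (log2 -1.46 ± 0.11 SE, n = 2 against 8; limma adjusted p = 2.88e-09) and at 35.7% with CycC dsRNA (-1.48 ± 0.08, n = 4 against 8; limma adjusted p = 2.63e-11). It rose to 122% with Med12 dsRNA (0.29 ± 0.08; limma adjusted p = 0.00686) and to 119% with Med13 dsRNA (0.25 ± 0.08; limma adjusted p = 0.0225). Both rises depended on the controls. With the Luc arrays as the only controls they were 0.22 and 0.18 and no longer passed the test (limma adjusted p = 0.0689 for Med12 and 0.165 for Med13). The Med13 rise also missed the threshold without Med13 replicate 2 (0.24, limma adjusted p = 0.0638) or replicate 4 (0.24, limma adjusted p = 0.0538), and where no floor was set (limma adjusted p = 0.0608).

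Of the 4 controls with GFP dsRNA, replicates 3 and 4 had the lowest DptB values, 1316 and 1287, against 1637 and 1632 in the others. The 4 Luc arrays lay between 1564 and 1650. From low to high the DptB groups ran CycC, Cdk8, GFP, Luc, Med13 and Med12. CycC and Cdk8 overlapped, as did GFP with Luc and Med13 with Med12, while Cdk8 with GFP and Luc with Med13 did not.

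AttD fell by a similar amount in each knockdown. Its intensity was 33.6 and 30.5 with Cdk8 dsRNA, and 38.4, 28.8, 34.4 and 27.7 with CycC dsRNA. It was 34.1, 39.5, 34.6 and 38.0 with Med12 dsRNA and 27.8, 27.6, 37.2 and 27.3 with Med13 dsRNA. The 8 controls ranged from 55.8 to 76.1 with a median of 62.9. All 14 knockdown arrays lay below all controls and above the floor.

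Relative to controls the attacin transcript stood at 49.6% both with Cdk8 dsRNA (log2 -1.01 ± 0.13 SE, n = 2 against 8; limma adjusted p = 8.69e-06) and with CycC dsRNA (-1.01 ± 0.10, n = 4 against 8; limma adjusted p = 1.78e-07). It stood at 56.5% with Med12 dsRNA (-0.82 ± 0.10; limma adjusted p = 1.57e-06) and at 46.1% with Med13 dsRNA (-1.12 ± 0.10; limma adjusted p = 2.94e-08). The knockdown groups, Med13, Cdk8, CycC and Med12 from low to high, each overlapped their neighbour, and a gap separated Med12 from GFP. Mtk and AttD were dim genes, and their fold sizes rest on the background correction. With 64 added to each intensity before the log2, the AttD change was between -0.46 and -0.36 over the 4 knockdowns, and all Mtk and AttD falls still passed the threshold.

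The edin transcript fell with Cdk8 and CycC dsRNA only part of the way that DptB did. Its intensity was 754 and 926 with Cdk8 dsRNA, and 999, 930, 892 and 991 with CycC dsRNA. It was 1446, 1701, 1489 and 1727 with Med12 dsRNA and 1897, 2020, 1964 and 1901 with Med13 dsRNA. The controls ranged from 1628 to 1977 with a median of 1882. The Cdk8 and CycC arrays all lay below the controls, whereas the Med12 and Med13 arrays overlapped them, with Med12 replicates 1 and 3 below every control.

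For edin the level was 45.2% of controls with Cdk8 dsRNA (log2 -1.15 ± 0.08 SE, n = 2 against 8; limma adjusted p = 2.42e-09) and 51.5% with CycC dsRNA (-0.96 ± 0.06, n = 4 against 8; limma adjusted p = 3.40e-10). With Med12 dsRNA it fell to 85.8% (-0.22 ± 0.06; limma adjusted p = 0.00732). That call was lost with the GFP arrays as the only controls (-0.18, limma adjusted p = 0.0510). Med13 dsRNA left it at 105% (0.07 ± 0.06; limma adjusted p = 0.401), with a 95% interval of the log2 difference from -0.06 to 0.20. The groups ran Cdk8, CycC, Med12, GFP, Luc and Med13 from low to high, and the gap in that order lay between CycC and Med12.

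The difference between the pairs can be tested without the controls, by setting the mean of the Med12 and Med13 groups against the mean of the Cdk8 and CycC groups. DptB was higher in the Med12-Med13 pair by 1.74 ± 0.07 on the log2 scale (SE, n = 8 against 6; limma adjusted p = 7.11e-14), a 3.35-fold difference. For edin the difference was 0.98 ± 0.06, or 1.97-fold (limma adjusted p = 1.23e-11). All 8 arrays of the first pair lay above all 6 of the second for both genes, which held for 13% of all genes. Mtk was lower in the Med12-Med13 pair, by a log2 difference of -0.54 ± 0.17 (limma adjusted p = 0.0131), with overlapping arrays. Most of that Mtk difference came from the Med13 arrays, which lay around the floor. The Mtk group means were 4.37 with Med13, 5.01 with Med12, 5.20 with CycC and 5.27 with Cdk8 dsRNA. AttD did not pass the test, at 0.04 ± 0.09 (limma adjusted p = 0.741; 95% interval -0.15 to 0.23).

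So 2 members rose and 1 fell in this contrast, in which 26.9% of all genes rose and 22.2% fell. Calls were common in it, but sizes like that of DptB were not. DptB ranked 14 and edin 56 of 5961 from the largest positive difference, and Mtk ranked 126 from the largest negative one. With 64 added before the log2 the Mtk difference was -0.16, still past the threshold (limma adjusted p = 0.0349).

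**Figure D2:**
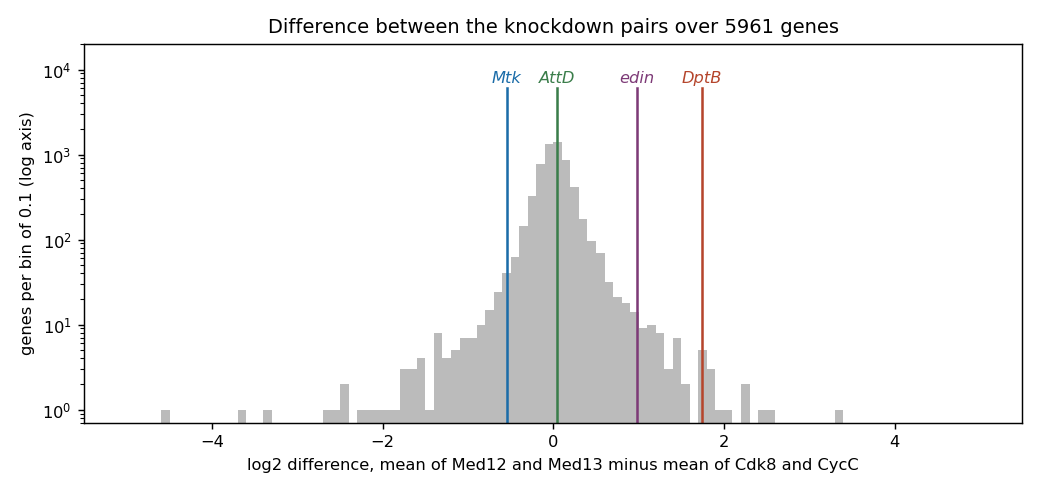
The horizontal axis gives the log2 difference between the mean of the Med12 and Med13 groups and the mean of the Cdk8 and CycC groups, and the vertical axis, on a log scale, the number of the 5961 genes in each bin of 0.1. Coloured lines mark the members, with AttD at 0.04 in the bulk of genes, Mtk at -0.54, edin at 0.98 and DptB at 1.74 in the right tail.

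Within the pairs the members did not pass the test. Between Cdk8 and CycC dsRNA, 0 of the 4 members passed limma's test, where 0.101% of all genes did. At an unadjusted p of 0.05, 1 member would count, namely edin (-0.19 ± 0.09, 95% interval -0.37 to -0.0034), against 4.86% of all genes. The intervals of the other 3 differences were -0.49 to 0.62 for Mtk, -0.22 to 0.26 for DptB and -0.30 to 0.30 for AttD, which leave room for unequal responses of those sizes.

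Between Med12 and Med13 dsRNA, 0 of the 4 members passed limma's test, where 0.872% of all genes did, and 3 had an unadjusted p below 0.05, as did 11.1% of all genes. Nearest the threshold was edin, lower with Med12 dsRNA by a log2 difference of -0.29 ± 0.07 (n = 4 each; limma adjusted p = 0.0598), with every Med12 array below every Med13 array, which held for 3.51% of all genes. That difference passed under limma with a trend and robust spread (adjusted p = 0.0238), with 64 added before the log2 (limma adjusted p = 0.0382) and without Cdk8 replicate 1 or 2, Med12 replicate 4 or GFP replicate 3 (limma adjusted p = 0.0311 to 0.0464). Mtk was higher with Med12 dsRNA by 0.64 ± 0.22 (limma adjusted p = 0.234). Without Med13 replicate 2 its difference was 0.91 and passed (limma adjusted p = 0.0206). AttD differed by 0.29 ± 0.12 (limma adjusted p = 0.330) and DptB by 0.04 ± 0.09 (limma adjusted p = 0.930).

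Between the controls, GFP minus Luc lay between -0.13 and -0.07 for the members, and 0 of 4 passed limma's test, with 0 also at an unadjusted p of 0.05. Among all genes 0.0336% passed, and 5.55% had an unadjusted p below 0.05.

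Deviations from the group means tied DptB and edin together as well. Over the 22 arrays these deviations had a Pearson correlation of 0.82 for DptB and edin, and between 0.06 and 0.46 for the other 5 pairs of members. GFP replicates 3 and 4 show it, being the lowest controls for both genes (edin 1628 and 1706). The points share their arrays and the normalization, and the correlation is given as a description.

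Other antimicrobial peptide genes over the floor were Drs, CecB, Anp and Drsl4. A list of 25 peptide genes, which includes the members and so also edin, thus had 8 measured genes. Of these 8, 6 fell with Cdk8 dsRNA (8.07% of all genes), 6 with CycC (10.9%), 6 with Med12 (15.5%) and 5 with Med13 dsRNA (11.2%), while DptB rose with Med12 (26.5%) and Med13 dsRNA (21%). The median log2 change over the 8 was -1.03, -0.84, -0.45 and -0.36 in that order. These counts and medians include the members. Outside the members, Drs and CecB fell in every knockdown, Anp only with Med12 and Med13 dsRNA, and Drsl4 in none. The list was put together with earlier results of these data known.

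Drs encodes Drosomycin, an antifungal peptide and the classical readout of Toll. Its intensity was 211 and 237 with Cdk8 dsRNA, between 247 and 311 with CycC, between 256 and 416 with Med12 and between 243 and 294 with Med13 dsRNA, against 361 to 528 in controls. Drs fell by a log2 value of -1.05 ± 0.13 with Cdk8 dsRNA, -0.72 ± 0.10 with CycC, -0.54 ± 0.10 with Med12 and -0.83 ± 0.10 with Med13 dsRNA, and its Med12 arrays overlapped the controls.

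CecB encodes a cecropin, a peptide that kills bacteria by permeating membranes. It stood at 73.0%, 73.5%, 72.6% and 75.8% of controls with Cdk8, CycC, Med12 and Med13 dsRNA, and every knockdown array (214 to 252) lay below every control (287 to 349). Anp, which encodes the andropin peptide of the male reproductive tract, changed in the knockdown pair in which DptB did not fall. It fell with Med12 dsRNA (-0.43 ± 0.04) and Med13 dsRNA (-0.32 ± 0.04) but not past the threshold with Cdk8 (-0.04 ± 0.06) or CycC dsRNA (-0.02 ± 0.04). The difference between the pairs was itself past the threshold for Anp (-0.34 ± 0.04; limma adjusted p = 4.25e-07).

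Drsl4, a drosomycin-like gene near the floor at 20.0 to 26.0, had changes between -0.05 and 0.03 that did not pass the test. The remaining 7 named peptide genes, among them Def, which encodes defensin, and Listericin, lay below the floor on all 22 arrays. The same held for the 10 named Bomanin and other Toll-induced peptide genes and the 4 named Turandot stress genes. Further genes of these lists were not analysed here.

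**Figure D3:**
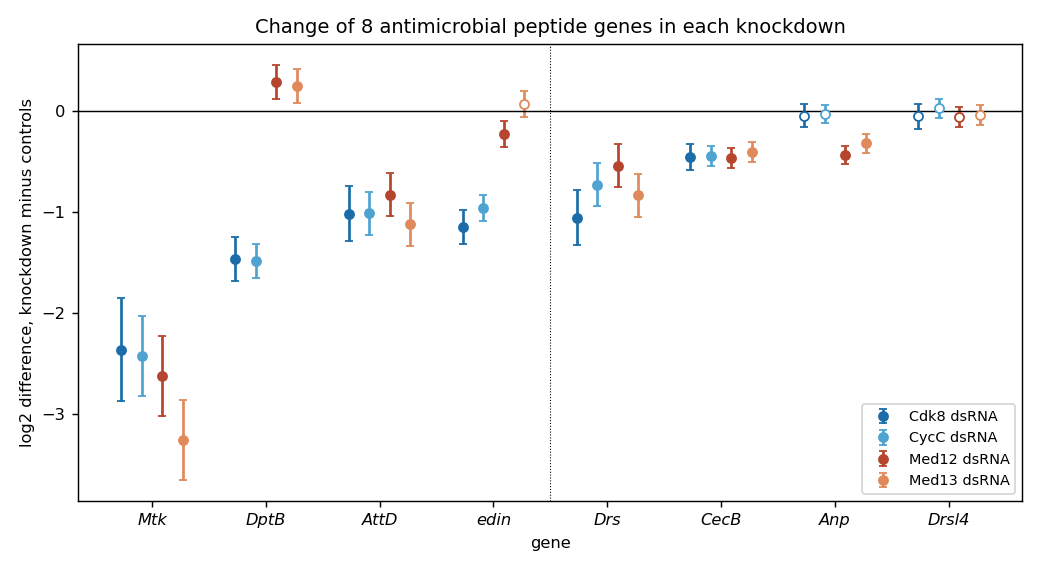
The log2 difference between each knockdown and the controls (vertical axis) is plotted for 8 peptide genes (horizontal axis). The 4 members, left of the dotted line, include the infection-induced gene edin. Points are limma estimates, bars their 95% intervals, and open points did not pass the adjusted threshold of 0.05. Mtk, AttD, Drs and CecB lie below 0 in all 4 knockdowns, and Anp drops in Med12 and Med13. DptB and edin drop in Cdk8 and CycC. In Med12, edin also lies slightly below 0 (-0.22), while DptB lies slightly above 0 in Med12 and Med13 (0.29 and 0.25).

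Upstream of the peptides, the recognition genes divided between the knockdown pairs as DptB did. Of 5 measured genes for peptidoglycan and glucan recognition, 4 fell and 1 rose with Cdk8 dsRNA (8.07% and 10.6% of all genes) and 4 fell with CycC dsRNA (10.9%). With Med12 dsRNA 5 of 5 rose (26.5% of all genes), as did 5 of 5 with Med13 dsRNA (21%). The median log2 change of the 5 genes was -0.48, -0.55, 0.58 and 0.51, against 0.02, 0.01, 0.04 and 0.03 over all genes. PGRP-LF encodes a membrane protein that holds the Imd pathway in check, and it changed by -0.48 ± 0.05 with Cdk8, -0.55 ± 0.04 with CycC, 0.38 ± 0.04 with Med12 and 0.40 ± 0.04 with Med13 dsRNA.

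GNBP3, a sensor of fungal glucans upstream of Toll, changed by -0.52 ± 0.08, -0.58 ± 0.06, 0.58 ± 0.06 and 0.51 ± 0.06 in the same order. GNBP2, a gene of the same family, changed by -0.55 ± 0.07, -0.57 ± 0.05, 0.69 ± 0.05 and 0.53 ± 0.05. PGRP-LB, an amidase that degrades peptidoglycan and so dampens Imd signalling, departed from this pattern. It rose with Cdk8 dsRNA (0.20 ± 0.06), Med12 (0.76 ± 0.05) and Med13 dsRNA (0.51 ± 0.05), and stood at 0.08 ± 0.05 with CycC dsRNA. The Cdk8 call depended on the GFP arrays. With the Luc arrays as the only controls PGRP-LB stood at 0.08 ± 0.07 with Cdk8 dsRNA (limma adjusted p = 0.512), and its GFP and Luc levels differed by -0.25 ± 0.06, with every GFP array below every Luc array. In the contrast of the pairs all 5 recognition genes were higher with Med12 and Med13 dsRNA (26.9% of all genes), by up to 1.17 ± 0.05 for GNBP2.

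Changes in the signalling core of Imd were smaller. Of 10 measured genes 3 fell with Cdk8 dsRNA (8.07% of all genes) and 3 with CycC dsRNA (10.9%). With Med12 dsRNA 3 rose and 1 fell (26.5% and 15.5% of all genes), and with Med13 dsRNA 3 rose and 1 fell (21% and 11.2%), shares near those of all genes. The median change of the 10 genes was -0.02, -0.08, 0.09 and 0.03. Rel, which encodes the NF-κB factor Relish, changed by -0.14 ± 0.04, -0.09 ± 0.03, 0.32 ± 0.03 and 0.28 ± 0.03 for Cdk8, CycC, Med12 and Med13 dsRNA. Its calls with Cdk8 and CycC dsRNA were lost with the GFP arrays as the only controls (limma adjusted p = 0.123 and 0.242). Fadd, the adaptor that joins Imd to the caspase Dredd, fell by -0.19 ± 0.05 and -0.14 ± 0.04 with Cdk8 and CycC dsRNA, but not past the threshold with the Luc arrays alone as controls (limma adjusted p = 0.0548 and 0.0820). The kinase subunit gene key rose with Med12 (0.20 ± 0.03) and Med13 dsRNA (0.18 ± 0.03), as did the ubiquitin ligase gene Diap2 (0.23 ± 0.04 and 0.15 ± 0.04).

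Among 7 genes known to restrain or tune Imd, 1 rose and 1 fell with Cdk8 dsRNA (10.6% and 8.07% of all genes), 1 fell with CycC (10.9%), 3 rose with Med12 (26.5%) and 2 rose with Med13 dsRNA (21%), so that the counts lay near the shares of all genes. Charon, an ankyrin-repeat partner of Relish, rose with Med12 (0.38 ± 0.03) and Med13 dsRNA (0.39 ± 0.03). The gene pirk, a target of Relish whose product blocks the receptors, fell with CycC dsRNA (-0.39 ± 0.08). The deubiquitinase genes CYLD (-0.25 ± 0.08) and scny (0.18 ± 0.06) were the calls with Cdk8 dsRNA, both lost with the GFP arrays as the only controls (limma adjusted p = 0.0682 and 0.0826).

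In the Toll cascade 11 genes were measured, of which 1 fell with Cdk8 dsRNA (8.07% of all genes) and 2 fell with CycC dsRNA (10.9%). With Med12 dsRNA 2 rose and 2 fell (26.5% and 15.5% of all genes), and with Med13 dsRNA 1 rose and 4 fell (21% and 11.2%). Apart from the 4 falls with Med13 dsRNA, these counts lay near or under the shares of all genes. The protease gene grass, which acts upstream of the Toll ligand, fell with Cdk8 (-0.58 ± 0.07) and CycC dsRNA (-0.47 ± 0.06). Its GFP and Luc levels differed by -0.29 ± 0.07, with every GFP array below every Luc array. The size of its falls thus depended on the controls, at -0.44 and -0.33 against GFP and -0.72 and -0.61 against Luc arrays alone. Against Luc arrays alone grass also fell with Med13 dsRNA (-0.22, limma adjusted p = 0.0170). The receptor gene Tl fell with CycC dsRNA (-0.43 ± 0.08), and the ligand gene spz fell with Med12 dsRNA (-0.24 ± 0.04). Pli, which encodes Pellino, an interactor of the kinase Pelle, fell with Med13 dsRNA (-0.39 ± 0.06).

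Of the 6 JNK genes 1 fell with Cdk8 dsRNA (8.07% of all genes) and 2 with CycC dsRNA (10.9%). With Med12 dsRNA 2 rose and 1 fell (26.5% and 15.5% of all genes), and with Med13 dsRNA 1 rose and 1 fell (21% and 11.2%). The phosphatase gene puc, which feeds back on the pathway, fell with Cdk8 (-0.26 ± 0.06), CycC (-0.23 ± 0.05) and Med13 dsRNA (-0.21 ± 0.05). The kinase gene bsk rose with Med12 (0.17 ± 0.03) and Med13 dsRNA (0.13 ± 0.03). The AP-1 subunit genes also had calls, with Jra at -0.11 ± 0.04 for CycC and kay at -0.16 ± 0.06 for Med12 dsRNA. With the Luc arrays as the only controls, the calls of Jra, kay and, for Cdk8 and Med13 dsRNA, puc were lost (limma adjusted p = 0.0998, 0.209, 0.0506 and 0.0545). The Jra call was also lost with the GFP arrays as the only controls (limma adjusted p = 0.0616). Of the 2 JAK/STAT genes measured, the receptor gene dome rose with Med12 (0.45 ± 0.06) and Med13 dsRNA (0.30 ± 0.06), while Stat92E did not pass the test in any knockdown.

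Serpent, the GATA factor that works with NF-κB at peptide genes, had transcript changes between -0.20 and 0.04. These did not pass the test in any knockdown against both controls. With the GFP arrays as the only controls, its fall with Med12 dsRNA did pass (-0.27, limma adjusted p = 0.0410). The gene ush, whose product binds GATA factors, rose with Cdk8 (0.28 ± 0.07) and CycC dsRNA (0.17 ± 0.05) and fell with Med12 (-0.30 ± 0.05) and Med13 dsRNA (-0.23 ± 0.05), a direction opposite to that of DptB. The CycC call of ush was lost with the GFP arrays as the only controls (limma adjusted p = 0.196). The GATA gene pnr rose with Med12 (0.25 ± 0.04) and Med13 dsRNA (0.24 ± 0.04).

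**Figure D4:**
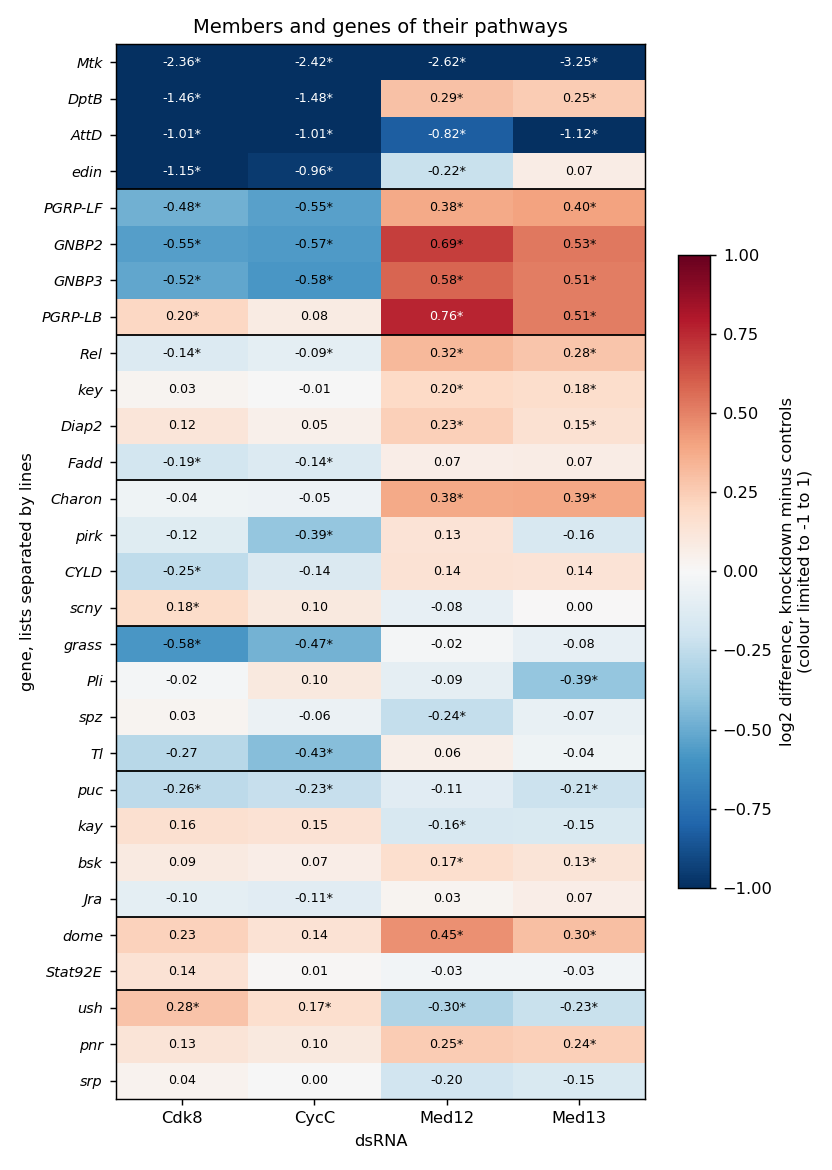
Each row is a gene, with the 4 members on top and up to 4 genes from each of 7 pathway lists beneath. The lists run in the order recognition, Imd signalling, Imd restraint, Toll, JNK, JAK/STAT and GATA. Genes shown of a list are those with the smallest p over the 4 knockdowns, so they do not represent the whole list. Columns are the knockdowns, and each cell gives the log2 difference from controls, coloured within -1 to 1, with an asterisk where the adjusted p was under 0.05. PGRP-LF, GNBP2, GNBP3 and Rel turn from negative under Cdk8 and CycC dsRNA to positive under Med12 and Med13 dsRNA, as DptB does. The Cdk8 and CycC calls of Rel were lost with the GFP arrays as the only controls.

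Markers of blood cells moved in the same arrays. Of 9 measured plasmatocyte genes 8 fell with Med12 (15.5% of all genes) and 6 with Med13 dsRNA (11.2%). With Cdk8 dsRNA 2 fell and 1 rose (8.07% and 10.6% of all genes), and with CycC dsRNA 3 fell and 1 rose (10.9% and 13.4%). The median log2 change of the 9 genes was -0.10, -0.01, -0.92 and -0.87 for Cdk8, CycC, Med12 and Med13 dsRNA. The lowest change was -0.51, -0.59, -2.89 and -2.62 in that order. Pxn, the marker that rose with Cdk8 and CycC dsRNA, did so by more than 1 on the log2 scale in each. A sum of intensities is weighted towards the brightest markers and can hide such changes. The summed intensity of the 10 named markers was 72604 to 73717 with Cdk8, 69547 to 72286 with CycC, 59035 to 61357 with Med12 and 62934 to 66770 with Med13 dsRNA, against 67294 to 74098 in controls. For 4 crystal cell markers, of which lz, peb and PPO2 lay below the floor, the sum was 123 to 129 with Cdk8, 136 to 169 with CycC, 74.2 to 96.9 with Med12 and 74.2 to 101 with Med13 dsRNA, against 93.9 to 144 in controls. For 4 lamellocyte markers, of which atilla lay below the floor, it was 3512 to 3561, 3472 to 3735, 2637 to 2851 and 2801 to 3279 in that order, against 3251 to 3759 in controls. The part of these shifts in the peptide results was not tested. In bulk samples such as these, fewer cells of a type and less RNA per cell cannot be told apart.

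The genes whose levels over the 22 arrays were most like those of each member were found by Pearson correlation, as a description that the group differences dominate. For DptB they were CG42394 (r = 0.990), Idgf2, a secreted chitinase-like growth factor gene (0.984), and CG33462 (0.980). For edin they were CG4793 (0.965), CG18557 (0.958) and again CG33462 (0.958). CG42394 changed by -0.95, -0.99, 0.23 and 0.19 on the log2 scale for Cdk8, CycC, Med12 and Med13 dsRNA, all past the threshold. CG33462 fell with Cdk8 (-3.08) and CycC dsRNA (-2.92), further than any member did there, and rose by 0.52 with Med13 dsRNA, with 0.09 not past the threshold for Med12 dsRNA. CG4793 changed by -1.26, -1.16 and -0.21 for the first 3, and stood at -0.06 for Med13 dsRNA.

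For Mtk the nearest genes were Ids, a lysosomal sulfatase gene (r = 0.943), CG14419 (0.942) and CG10962 (0.928). For AttD they were CG32032 (0.949), the mitochondrial dicarboxylate carrier gene Dic1 (0.941) and the glutathione transferase gene GstE9 (0.927). These genes fell in all 4 knockdowns, by -0.60, -0.56, -0.76 and -0.69 for Ids and by -0.64, -0.53, -0.65 and -0.64 for CG32032.

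The genes next to each member on the chromosome were also looked up, by position alone. The protein-coding neighbours of Mtk (Stacl and CG30472), of DptB (DptA and CG43109) and of AttD (CG14323 and CG14325) were below the floor or were not analysed here. Both neighbours of edin were measured. Oatp74D, which encodes an organic anion transporter that imports ecdysone, fell with Cdk8 (-0.29 ± 0.06) and CycC dsRNA (-0.20 ± 0.04) and rose with Med12 (0.20 ± 0.04) and Med13 dsRNA (0.27 ± 0.04). The splicing factor gene U4-U6-60K on the other side rose with CycC dsRNA (0.14 ± 0.05; limma adjusted p = 0.0404) and stood at 0.14 ± 0.06, -0.06 ± 0.05 and -0.01 ± 0.05 with Cdk8, Med12 and Med13 dsRNA.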

How the data were processed

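The authors' deposited table held 1 intensity per probe set and array, on a linear scale from 2.02 to 70939, made with GCRMA per the submitters' processing notes. GCRMA corrects background by probe sequence, normalizes between arrays and summarises probes; its settings are not given in the sources used here. Intensities were put on the log2 scale. Of 18952 probe sets, 183 controls were left out, 13647 had 1 gene symbol, 402 several and 4720 none. Gene identifiers matched a current RefSeq gene table for 13544. A probe set was kept at log2 4 or more on at least 2 arrays, and the set with the highest mean stood for a gene, which left 5961 genes. Groups came from the sample titles. In R 4.3.3, limma 3.58.1 (lmFit and eBayes) estimated 1 mean for each group from all 22 arrays, with 16 residual degrees of freedom. Each knockdown was set against the mean of the GFP and Luc means. Tests were two-sided, with Benjamini-Hochberg adjustment over all genes and a threshold of 0.05. "Rose" and "fell" are used of genes past it. The fit was tested on simulated data. Precision is limited by how many arrays a group has.

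The members and lists were chosen with earlier results of these data known. The text names the members, other measured peptide genes, up to 4 genes per pathway list with the smallest p over the 4 knockdowns, the module genes, and 3 genes most like each member. Same-numbered arrays of different groups did not deviate together in every case (25 of 50 correlations over 0.1, range -0.24 to 0.44). Of the 22 arrays, however, 12 deviated most like an array of their own number in another group. An effect shared by same-numbered arrays is therefore possible. The main fit did not use the numbers as pairs, and the replicate block among the alternatives did use them. Alternatives covered the floor, scaling, probe sets, spread, background, controls, samples in the fit, replicate block and leaving out each array.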

Additional observations from a re-analysis of the deposited data

Results flagged for a closer look

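AttD had 1 array far from the others of its group. Med13 replicate 3 stood at a log2 value of 5.22, while the other 3 Med13 arrays lay between 4.77 and 4.80, close to the floor. Without that array the AttD difference from controls was -1.23, the lowest value obtained by leaving out an array. Of 20 sets of 4 arrays examined this way, 1 had such an array, and chance marks about 1 set in 20.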

How the results depend on the processing

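Of 1008 member values recomputed, 994 kept their call and, where called, their direction, and 14 did not. The falls of all 4 members with Cdk8 and CycC dsRNA, the falls of Mtk and AttD with Med12 and Med13 dsRNA, and the pair differences of DptB, edin and Mtk passed under every alternative run.

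The DptB rise was 0.22 with Med12 and 0.18 with Med13 dsRNA against Luc arrays alone, past neither threshold, and the Med13 rise of 0.25 missed it without a floor on dim probe sets. The edin fall with Med12 dsRNA was -0.18 against GFP arrays alone. The causes were not tested. Leaving out arrays gave 0.22 to 0.28 for the DptB rise with Med13, 0.38 to 0.91 for Mtk and -0.34 to -0.25 for edin between Med12 and Med13. In that contrast 1 member passed (edin) in place of 0 with trend and robust spread (-0.29), with 64 added (-0.28) and with the replicate block (-0.29), and 0 to 1 without an array (edin without Cdk8 replicate 1 or 2, Med12 replicate 4 or GFP replicate 3, and Mtk without Med13 replicate 2). The replicate block changed no other member call. Of 60 calls of the other peptide and pathway genes named, 6 were lost with GFP arrays alone and 8 with Luc arrays alone. In each of these settings 3 calls were gained. This comparison was chosen after seeing the data.

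Among all genes, 1113 were called with Cdk8 dsRNA, but 538 without Cdk8 replicate 1 and 623 without replicate 2, with the lone array taken to vary like the other groups. Between Med12 and Med13 52 became 25 without Med12 replicate 3 and 34 without Med13 replicate 4. Between Cdk8 and CycC 6 became 3 without CycC replicate 1 or 2 and 3 with 64 added. Between GFP and Luc 2 became 4 after centring, 4 after quantile normalization, 5 with the block, 4 without either Cdk8 array and 10 without Luc replicate 4. With Med13 dsRNA 65.1% of calls were rises, against 50.9% after median centring and 55.0% after quantile normalization.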
